A study of Mus musculus with 7 samples.

Results

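The genes of this report act in the plasminogen system and in coagulation, and they were followed in mouse myocardium 4 days after myocardial infarction (MI). They were taken by name from a table of mouse genes: Plat, Plau, Plaur, Serpine2, Serpinf1, F3, Tfpi, Thbd and Procr, 9 of 56980 in all. The table held 7 hearts of wild-type male C57BL/6J mice, obtained at 8 weeks of age and kept for a week before surgery. In 3 of them the left coronary artery was ligated (MI), and 4 were sham-operated, with the same procedure but no ligation. The labels name no transgene, drug or other treatment for either group, the study describes the MI tissue as ischemic myocardium, and each heart gave 1 library of total RNA. Values are FPKM, the fragments counted on a gene relative to its length and to the fragments of the library, and the libraries held between 19977713 and 23610854 fragments.

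The plasminogen system dissolves fibrin. Tissue-type and urokinase-type activators cut plasminogen into plasmin, the urokinase receptor holds its activator at the cell surface, and serpins block the activators. Coagulation starts when tissue factor meets clotting factor VII, a step that tissue factor pathway inhibitor blocks, and on endothelium thrombomodulin and the protein C receptor turn thrombin towards activating protein C, an anticoagulant. In the infarcted heart the plasminogen system is known for its part in the removal of dead tissue and the entry of leukocytes, and most circulating factors of both systems are made by the liver.

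The sequences just upstream of the start sites are shown for 5 members on which the results turn: Plaur, Serpine2 and Serpinf1, whose group means were higher in MI, F3, whose mean was lower, and Tfpi, whose level split the hearts across the groups. They are RefSeq promoters on GRCm38.p6, read 5′ to 3′ on the strand of the gene and cut where an exon of a protein-coding gene begins. The table of promoters matched 6 of 9 members. Capitals mark any match on either strand to 5 short motifs. The first was TATAAA, the TATA box. TGANTCA is the form of an AP-1 site and GGGCGG the GC box bound by Sp1. Krüppel-like factors bind CACCC boxes, and ACGTG is the core of a hypoxia response element.
Plaur, plus strand of chr7:24462333-24462482: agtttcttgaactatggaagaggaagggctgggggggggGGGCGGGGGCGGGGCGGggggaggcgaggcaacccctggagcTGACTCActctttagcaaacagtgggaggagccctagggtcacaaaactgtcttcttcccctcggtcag
Serpine2, minus strand of chr1:79858697-79858815: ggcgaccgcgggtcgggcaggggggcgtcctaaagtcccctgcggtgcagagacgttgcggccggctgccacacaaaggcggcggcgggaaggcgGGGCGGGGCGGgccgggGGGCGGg
Serpinf1, minus strand of chr11:75422702-75422773: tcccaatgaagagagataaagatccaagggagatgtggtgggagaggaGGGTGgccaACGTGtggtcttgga
F3, plus strand of chr3:121723387-121723536: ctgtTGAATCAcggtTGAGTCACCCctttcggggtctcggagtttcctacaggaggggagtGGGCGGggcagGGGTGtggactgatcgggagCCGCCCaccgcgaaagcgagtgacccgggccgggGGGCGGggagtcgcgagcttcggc
Tfpi, minus strand of chr2:84476776-84476909: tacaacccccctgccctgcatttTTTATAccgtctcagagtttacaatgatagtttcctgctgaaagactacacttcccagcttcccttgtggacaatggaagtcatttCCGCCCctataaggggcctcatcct

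Within the whole 150 bases upstream of the start, F3 held 2 matches to TGANTCA, of which the second shares letters with a CACCC, and Plaur held 1. That motif stood in 4.24% of the 32851 mouse promoter windows of the same length. GGGCGG was found 5 times for Serpine2, 3 times each for F3 and Plaur and once for Tfpi, and 28.6% of all windows held it. CACCC had 2 matches for F3 and 1 for Serpinf1, and 37.4% of all windows held it. Serpinf1 also had 1 ACGTG, which 11.2% of all windows held. The Tfpi window had 1 match to TATAAA, which 7.57% of all windows held. The Procr window and the window of a second Tfpi start held none of the 5 motifs. Such matches describe letters only.

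One library stood apart before any comparison was made. Over the 11431 genes that reached 1 FPKM in 3 or more hearts, MI replicate 2 had a Pearson's r with the sham hearts of 0.984 to 0.987. The values were 0.878 to 0.881 in MI replicate 1 and 0.903 to 0.906 in MI replicate 3. These r are across genes, which are not independent replicates. The labels place all 3 hearts in the MI group, and the sources used here do not say how infarct size or the tissue taken compared between them, so a mean or SD over the MI hearts joins unlike profiles. The 8 cardiomyocyte markers were detected in every heart, and their summed FPKM was 8181 to 9086 in sham and 4513, 7995 and 5388 in MI replicates 1, 2 and 3. Results are given with all 7 hearts, and without MI replicate 2 where that changes them.

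Limma's moderated test on log2(FPKM + 1) covered 7 of the 9 members, because Plaur and Procr were below the level required. At an unadjusted p under 0.05, 4 members were higher in MI (Plau, Serpine2, Serpinf1 and Thbd) and 1 was lower (F3). Over all genes tested, 29.5% were higher and 9.85% lower by the same criterion. None of the members passed a Benjamini-Hochberg adjusted p of 0.05 in limma, the smallest being 0.108, and 0.0262% of all genes did. Every MI heart was above every sham heart for Thbd alone among the 7, and for 16.1% of all genes. F3 was the only tested member with every MI heart below every sham heart, which held for 9% of all genes. The median member changed by 0.67 on the log2 scale and the median of all genes tested by 0.21, and 8340 of 11431 genes had a positive change. Without MI replicate 2, a comparison of 2 MI hearts with 4 sham hearts, 6 of the 7 members passed the adjusted p in limma, all but Tfpi, and so did 71.7% of all genes. Thbd kept an unadjusted p under 0.05 whichever single heart was left out, Serpine2 and Serpinf1 lost it without MI replicate 1 or 3, and Plau and F3 kept it only without MI replicate 2.

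**Figure D1:**
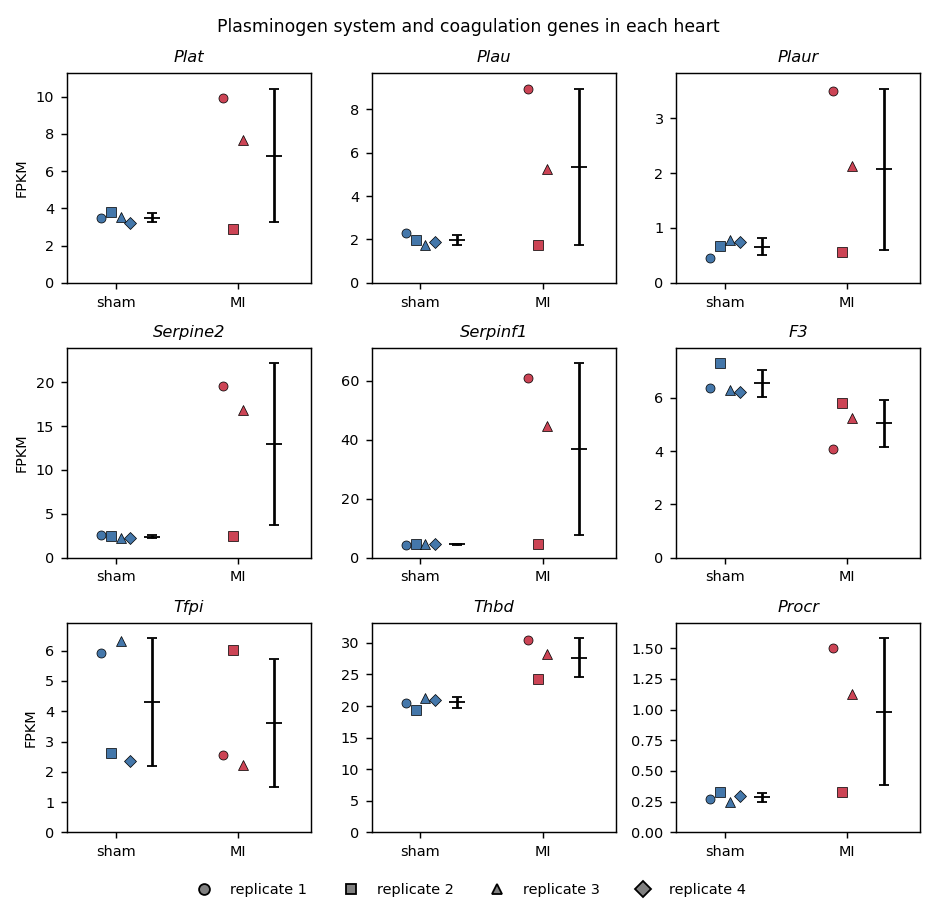
FPKM of the 9 genes in each heart, with sham hearts in blue, MI hearts in red, the marker shape giving the replicate number and the bar the mean ± SD (n = 4 sham, n = 3 MI). MI replicate 2 (red square) lies within or close to the sham values for Plau, Plaur, Serpine2, Serpinf1 and Procr and below them for Plat and F3, and Tfpi has 2 levels in both groups.

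Plat (ENSMUSG00000031538, plus strand of chromosome 8 from 22757727 to 22782844 on GRCm38) encodes tissue-type plasminogen activator. Its FPKM was 3.47, 3.8, 3.53 and 3.24 in sham replicates 1 to 4 and 9.93, 2.90 and 7.67 in MI replicates 1 to 3. MI replicates 1 and 3 were above all sham hearts and MI replicate 2 was below them all, so the groups overlapped. The means were 3.51 ± 0.230 (SD, n = 4) and 6.84 ± 3.59 (SD, n = 3), a ratio of 1.95, and the log2 fold change of 0.67 (standard error 0.32) did not pass the test, with an adjusted p of 0.151 in limma.

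Plau (ENSMUSG00000021822, plus strand of chromosome 14 from 20836660 to 20843385) encodes urokinase. Sham replicates 1 to 4 had 2.28, 1.96, 1.77 and 1.87 FPKM, whereas MI replicates 1 to 3 had 8.94, 1.76 and 5.26. Again MI replicates 1 and 3 were high, and MI replicate 2 was just below the lowest sham heart. The ratio of the means was 2.70 and the log2 fold change 0.91 (standard error 0.38, limma adjusted p = 0.125). Its unadjusted p was no longer under 0.05 with median log-ratio scaling, quantile normalization or no filter.

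Plaur (ENSMUSG00000046223, plus strand of chromosome 7 from 24462484 to 24475968), the urokinase receptor, was scarce. Between 52 and 96 fragments per sham heart gave 0.446, 0.674, 0.787 and 0.742 FPKM, and 396, 67 and 262 fragments gave 3.50, 0.569 and 2.14 in the MI hearts. MI replicate 2 lay within the sham range and the other MI hearts were above it. Tested without a filter, Plaur had a log2 fold change of 0.76 (standard error 0.34) and an adjusted p of 0.208 in limma. With the filter set on the mean level the limma adjusted p was 0.127. Plaur passed that filter only through MI replicates 1 and 3, where it was high, so this p adds no support.

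Differences between these 3 genes within a heart overlapped between the groups. The difference between log2 values of Plau and Plat within a heart was higher by 0.24 in MI (exact two-sided permutation p = 0.171), and that between Plaur and Plau changed by −0.15 (exact two-sided permutation p = 0.457), or by 0.10 with a pseudocount of 0.1, so that its direction is not set. Over the 5 differences tested here and below, the adjusted values are 0.429 and 0.571. With the smaller tail doubled, as in these tests, 3 hearts against 4 cannot give a p below 0.0571.

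Serpine2 (ENSMUSG00000026249, minus strand of chromosome 1 from 79794197 to 79861180) encodes protease nexin-1, a serpin that inhibits thrombin, urokinase and tissue-type plasminogen activator. The sham hearts held 2.55, 2.45, 2.24 and 2.18 FPKM and the MI hearts 19.6, 2.47 and 16.8. MI replicates 1 and 3 were far above the sham hearts, whereas MI replicate 2 fell between sham replicates 1 and 2. Means of 2.36 ± 0.171 (SD, n = 4) and 13 ± 9.19 (SD, n = 3) gave a ratio of 5.50 and a log2 fold change of 1.69 (standard error 0.57, limma adjusted p = 0.108).

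Measured against Plat in the same heart, Serpine2 was higher in each MI heart than in any sham heart. Sham replicates 1 to 4 had log2 differences of −0.33, −0.48, −0.48 and −0.41 and MI replicates 1 to 3 of 0.91, −0.17 and 1.04, a shift of 1.02. The groups did not overlap, though in MI replicate 2 Serpine2 itself was inside the sham range and Plat below it. The exact two-sided permutation p was 0.0571, the smallest possible, or 0.286 after adjustment over the 5 differences.

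Serpinf1 (ENSMUSG00000000753, minus strand of chromosome 11 from 75409769 to 75422701) encodes pigment epithelium-derived factor, a secreted serpin known as an inhibitor of angiogenesis that does not inhibit proteases. It had the largest increase of the members and ranked 75 of the 11431 genes by log2 change. Sham hearts held a very narrow range, 4.37, 4.61, 4.46 and 4.49 FPKM, and MI hearts 61, 4.57 and 44.7. MI replicate 2 stayed inside the sham range, with 412 fragments where the sham hearts had 357 to 417. The ratio of the means was 8.20 with all MI hearts and 11.8 with MI replicates 1 and 3, and the log2 scale gave a change of 2.19 (standard error 0.76, limma adjusted p = 0.108).

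Profiles were compared by their root mean square difference over the 7 hearts, each gene being taken relative to its own sham mean. The genes most like Serpinf1 were Csrp2 (0.150 on the log2 scale), Col5a1, a fibrillar collagen chain (0.158), and Loxl1, which cross-links elastin (0.164). In MI replicates 1, 2 and 3 Col5a1 stood at 90.6, 9.40 and 68.9 FPKM. The 8 fibroblast markers, all higher at an unadjusted p under 0.05 in limma, were highest in the same 2 hearts as both serpins: their summed FPKM was 122 to 145 in sham and 2492, 232 and 1923 in MI. In MI replicate 2 the sum of the markers was above the sham range and both serpins were inside it. Their part in the result was not tested. In bulk tissue a change in the number of cells of a type cannot be told apart from a change in RNA per cell.

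**Figure D2:**
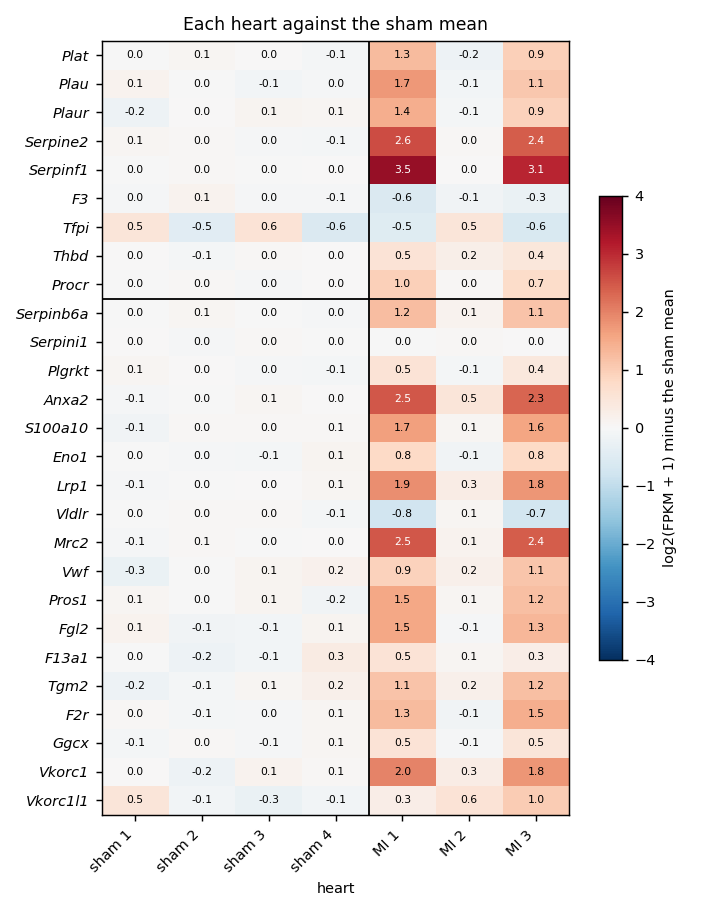
Difference of log2(FPKM + 1) from the mean of the 4 sham hearts for the 9 members (above the line) and for the other 18 pathway genes that were tested, with 1 column for each heart. Most increases stand in MI replicates 1 and 3, those of Serpinf1 being the largest shown, and MI replicate 2 is close to the sham hearts for most genes, with Anxa2 and Vkorc1l1 among those above them.

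F3 (ENSMUSG00000028128, plus strand of chromosome 3 from 121723537 to 121735048) encodes tissue factor, the cell-surface starter of coagulation. It was the only tested member lower in MI at an unadjusted p under 0.05. Sham hearts had 6.37, 7.29, 6.31 and 6.22 FPKM, and MI hearts 4.08, 5.82 and 5.24. All MI hearts were below all sham hearts, MI replicate 2 being the closest to them. The means were 6.55 ± 0.500 (SD, n = 4) and 5.05 ± 0.884 (SD, n = 3), a ratio of 0.770, with a log2 fold change of −0.33 (standard error 0.12, limma adjusted p = 0.112). When FPKM was rescaled to TPM the change was −0.17 and no longer had an unadjusted p under 0.05, while relative to the median gene it was −0.54.

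The profiles closest to that of F3 were those of Speg (0.042 on the log2 scale), a kinase of striated muscle, Asph (0.051), and Ss18l2 (0.057). Speg ranged from 14.0 to 15.9 FPKM in sham and stood at 9.24, 13.9 and 11.5 in MI. The summed cardiomyocyte markers given above were lowest in the hearts where F3 was lowest, MI replicates 1 and 3, and their part in the F3 result was not tested.

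Tfpi (ENSMUSG00000027082, minus strand of chromosome 2 from 84432855 to 84476775), the inhibitor of tissue factor and factor VII, covered the same range in both groups. Its FPKM was 5.93, 2.61, 6.31 and 2.34 in sham replicates 1 to 4 and 2.54, 6.03 and 2.24 in MI replicates 1 to 3. The hearts fell into 2 levels that crossed the groups: sham replicates 1 and 3 and MI replicate 2 lay between 5.93 and 6.31, and the remaining 4 hearts between 2.24 and 2.61, with nothing between. The lower level rested on 665 and 551 fragments in sham and 652 and 622 in MI, and the higher level on 1565 and 1743 in sham and 1606 in MI. Within the lower level the mean was 2.48 in sham and 2.39 in MI hearts, and within the higher level 6.12 in sham and 6.03 in the single MI heart. The comparison of the groups gave a log2 fold change of −0.20 (standard error 0.39, 95% interval −1.11 to 0.71, limma adjusted p = 0.690).

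**Figure D3:**
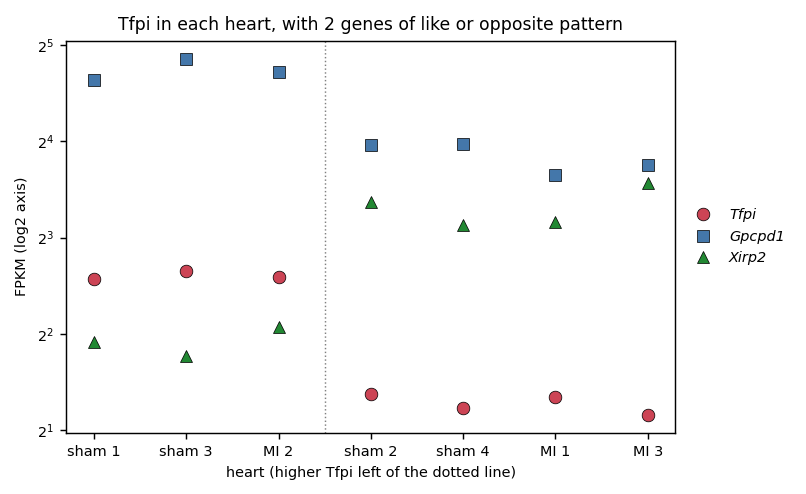
FPKM on a log2 axis of Tfpi and of 2 genes chosen after their values were seen, Gpcpd1 with a like and Xirp2 with an opposite pattern, in each heart. Sham replicates 1 and 3 and MI replicate 2, left of the dotted line, had 5.93 to 6.31 FPKM of Tfpi, against 2.24 to 2.61 in the other 4 hearts.

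The gap of Tfpi between these levels, 0.94 on the log2 scale, was the widest of any of the 11431 genes that were higher in the same 3 hearts. The levels were defined by Tfpi itself, which favours such a rank, so it is no test. In the opposite direction Asdurf had a gap of 0.96. In all, 117 genes, Tfpi included, separated these 3 hearts from the other 4 in the same direction as Tfpi and 542 in the opposite direction. The labels name no batch that would sort the hearts in this way, and the cause was not tested. The difference of log2 values between F3 and Tfpi took its spread from Tfpi, changed by −0.13 in MI, and had an exact two-sided permutation p of 0.8 (adjusted 0.8). Its sign turned without sham replicate 2 (0.07), sham replicate 4 (0.04) or MI replicate 2 (0.13).

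Thbd (ENSMUSG00000074743, a single exon, minus strand of chromosome 2 from 148404466 to 148408188) encodes thrombomodulin, the thrombin receptor of endothelium. It was the most abundant member in every sham heart and the only tested member for which all MI hearts exceeded all sham hearts. The values were 20.6, 19.4, 21.3 and 21 FPKM in sham and 30.4, 24.3 and 28.2 in MI, and MI replicate 2 stood clear of the highest sham heart. Means of 20.6 ± 0.820 (SD, n = 4) and 27.6 ± 3.11 (SD, n = 3) gave a ratio of 1.34. The log2 fold change of 0.40 (standard error 0.10, limma adjusted p = 0.108) was 0.19 above that of the median gene, and it was 0.14 after scaling by the median log-ratio and 0.18 with quantile normalization, in neither case with an unadjusted p under 0.05. The 8 endothelial markers summed to 136 to 156 FPKM in sham and to 172, 129 and 184 in MI, with 1 of the 8 higher at an unadjusted p under 0.05, and their part in the result was not tested.

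Procr (ENSMUSG00000027611, plus strand of chromosome 2 from 155751117 to 155755471), the endothelial protein C receptor, was the least abundant member. It had 0.272, 0.330, 0.249 and 0.292 FPKM in the sham hearts, from 22 to 27 fragments, and 1.5, 0.328 and 1.12 in the MI hearts, from 123, 28 and 100. MI replicate 2 was level with sham replicate 2, and MI replicates 1 and 3 were above. Tested without a filter, the log2 fold change was 0.58 (standard error 0.21, limma unadjusted p = 0.0281, adjusted p = 0.188). In that setting 7730 genes had an unadjusted p under 0.05. On this scale the added 1 understates changes of so scarce a gene: the ratio of the means was 3.44. Thbd minus Procr within a heart moved by −0.17 (exact two-sided permutation p = 0.4, adjusted 0.571). This value rests on the added 1, being −0.87 with a pseudocount of 0.1, and on single hearts, being −0.05 without MI replicate 1 and −0.35 without MI replicate 2.

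In order of mean sham FPKM, which is per length, the members ran Thbd (20.6), F3 (6.55), Serpinf1 (4.48), Tfpi (4.30), Plat (3.51), Serpine2 (2.36), Plau (1.97), Plaur (0.662) and Procr (0.286). The ranges of neighbours overlapped for Serpinf1 and Tfpi, for Tfpi and Plat and for Serpine2 and Plau, and Tfpi, from 2.34 to 6.31, also overlapped F3 and Serpine2. In MI replicates 1 and 3 Serpinf1 was the first of the 9, above Thbd, and in MI replicate 2 the order began as in the sham hearts, with Thbd. The order depends on the gene lengths behind the deposited values: these implied 11764 bases for Tfpi, where the exons of the GENCODE M21 annotation span 5463, 3982 against 2359 for Serpinf1, 5197 against 2617 for Plaur and 3770 against 2031 for Procr. Whether a gene reached 1 FPKM, and so was tested, depends on these lengths too. Ratios of FPKM of 1 gene between hearts do not depend on the length. Changes of log2(FPKM + 1) do, through the added 1, most for scarce genes.

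Of 50 other genes of the 2 systems, 18 passed the filter. At an unadjusted p under 0.05 in limma 12 of the 18 were higher in MI and 0 lower, against 29.5% and 9.85% of all genes, and 0 passed the adjusted p. Every MI heart exceeded every sham heart for 7 of the 18 and for 16.1% of all genes. The median change was 0.84 on the log2 scale. The 12 became 7 without MI replicate 1, 15 without MI replicate 2 and 6 without MI replicate 3, where 9.18%, 58.8% and 8.33% of all genes were higher. Without MI replicate 2, 16 of the 18 passed the adjusted p in limma, 1 of them lower (Vldlr) and all but Serpini1 and Vkorc1l1, beside the 71.7% of all genes given above. The fold changes below are with all hearts, and "did not pass" refers to an unadjusted p of 0.05 there.

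Among the inhibitors, Serpinb6a was higher by 0.84, and Serpini1, neuroserpin, had 0.02, a value that turned to −0.13 after scaling by the median log-ratio.

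Of the 4 receptors that hold plasminogen at the cell surface 2 were higher, as were 2 of the 3 tested receptors that clear its activators. Anxa2, which binds plasminogen and tissue-type activator, was higher by 1.77 on the log2 scale (standard error 0.45), from 14.9 to 16.5 FPKM in sham to 92.7, 22.1 and 82.4 in MI, and its partner S100a10 by 1.10. Plgrkt (0.30) and Eno1 (0.49) did not pass an unadjusted p of 0.05, and Eno1 has a near-identical copy that could share its fragments. Among the clearance receptors Lrp1, which takes up activators bound to serpins, was higher by 1.31 and the collagen receptor Mrc2 by 1.67. Vldlr was the only one of the 18 with a negative change, −0.48, and did not pass. Without MI replicate 2 it was −0.76, with a limma adjusted p of 4.13e-05, in a range of 1.61e-07 to 0.384 over the alternatives.

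On the coagulation side, Vwf, the platelet adhesive protein of endothelium, was higher by 0.74, Pros1, the protein S cofactor, by 0.95, the thrombin receptor F2r by 0.87, Fgl2 by 0.93 and Tgm2, which cross-links proteins, by 0.84. F13a1, the fibrin cross-linking factor of macrophages and platelets, had 0.30 and did not pass. In the vitamin K cycle, which makes clotting factors able to bind calcium, Vkorc1 was higher by 1.36 and Vkorc1l1 by 0.61, and Ggcx (0.32) did not pass. Vkorc1l1 was no longer under an unadjusted p of 0.05 with median log-ratio scaling (0.43) or quantile normalization (0.37), nor was F2r with median log-ratio scaling.

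**Figure D4:**
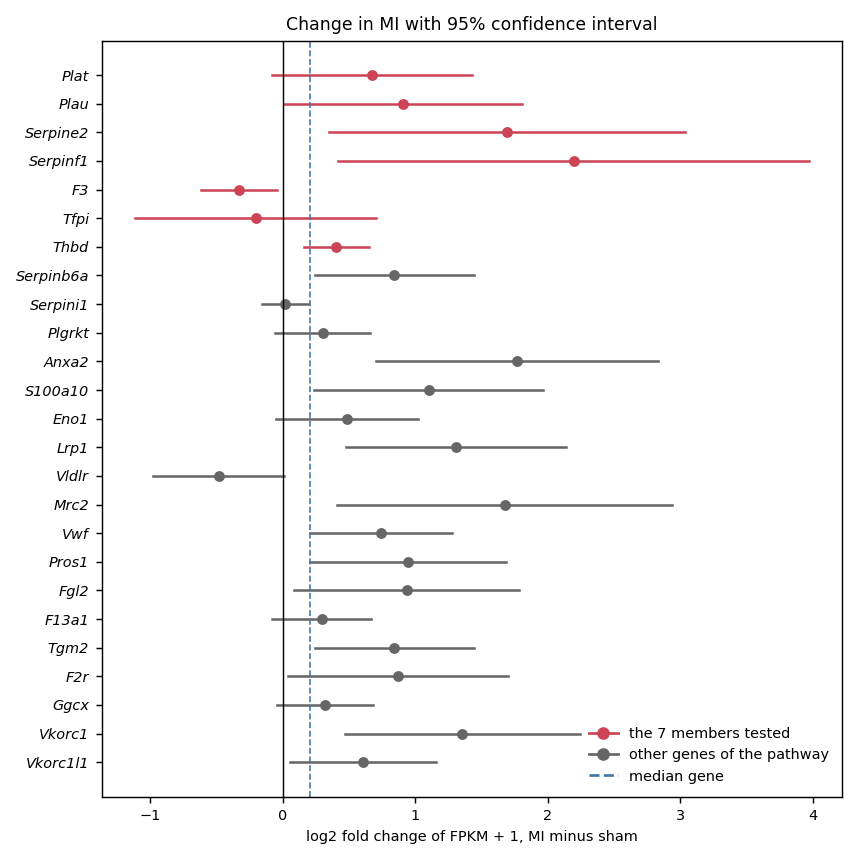
Log2 fold change of FPKM + 1 (MI minus sham) with its 95% confidence interval from limma, for the 7 members tested (red) and the 18 other pathway genes tested (grey), beside the median of all genes (dashed line, 0.21). F3, Tfpi and Vldlr lie below 0, and Serpinf1 and Serpine2 have the widest intervals.

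Of the 32 pathway genes that were not tested, 29 stayed under 1 FPKM in every heart, among them Plg, F2, F7, F9, F10, Proc, Serpinc1 and the fibrinogen chains, and F11 was listed at 0 in all 7. At these low levels F7 had 0.0496 to 0.229 FPKM in sham and 0.938, 0.428 and 0.410 in MI. For F7 and F10 every MI heart was above every sham heart, and for the other genes just named the groups overlapped. The 5 hepatocyte markers summed to 0.257 to 6.2 FPKM in sham and 1.11 to 4.55 in MI. The other 3 reached 1 FPKM in some heart. Tfpi2 had 0.296 to 0.624 FPKM in sham and 3.98, 0.404 and 2.62 in MI. F2rl1, a receptor of the same family as F2r, had 0.237 to 0.404 in sham and 1.06, 0.532 and 1.27 in MI. Serpinb2, plasminogen activator inhibitor 2, was listed at 0 in the sham hearts and in MI replicate 2, at 7.89 in MI replicate 1 and at 0.308 in MI replicate 3.

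Leukocyte markers were high in the same MI hearts as Plau and Plaur. The 8 macrophage and monocyte markers summed to 114 to 152 FPKM in sham and to 805, 139 and 699 in MI. For 6 neutrophil markers the sums were 0.355 to 1.31 in sham and 15.8, 0.503 and 7.68 in MI, with Retnlg and Ngp at 0 in every sham heart, and for 8 platelet markers 9.65 to 11.3 in sham and 24.5, 10.4 and 12.1 in MI. Their part in these results was not tested. The 7 mesothelial markers, 4.21 to 9.82 in sham, were at 29.6, 21.3 and 44.0 in MI, so that here MI replicate 2 was apart from the sham hearts, and the 7 smooth muscle and pericyte markers summed to 218 to 260 in sham and 348, 222 and 386 in MI.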

How the data were processed

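Myocardial RNA from 3 MI and 4 sham-operated mice was sequenced, 1 library each, and grouped by the labels. For each library the authors deposited FPKM values of 56980 Ensembl genes, and 0 columns were left unused. The submitters' processing notes name CASAVA 1.8, HISAT2, SAMtools 1.3.1, edgeR and mm10. The annotation and the use of strand in counting are not given in the sources used here. Of the identifiers, 52073 (91.4%) had a symbol. Positions are those of GENCODE M21 on GRCm38.

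The 11431 genes with FPKM of at least 1 in at least 3 hearts were tested as log2(FPKM + 1) with limma 3.58.1 (trend, R 4.3.3), without covariates, with Benjamini-Hochberg adjustment at 0.05 over all of them. The script was tested on simulated data. Differences between 2 members within a heart had exact two-sided permutation tests over 35 arrangements, with the smaller tail doubled. Whole fragments and depths were recovered from the steps of the FPKM values, within 0.05 of a whole number. The fragments behind a value set its counting error, which is part of the spread between animals. P-values set a difference between the groups against the spread between these animals, which limma moderates over all genes.

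The members, the pathway and marker lists and the tests were chosen with earlier results of these data known. All members are named, pathway genes that passed the filter are named with values (1 gene of the list is not reported here and was left out of its counts), and the 3 nearest profiles are given for the members of largest increase and decrease. The alternatives tried were TPM, a pseudocount of 0.1, dropping the filter or setting it on the mean, quantile normalization, median log-ratio scaling, no trend, sample weights, a replicate block and each heart left out. Tables and permutations were made with Python 3.11.15 (NumPy 2.4.6, pandas 2.3.3) and figures with matplotlib 3.10.9.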

Additional observations from a re-analysis of the deposited data

Results flagged for a closer look

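F3 in sham replicate 2, at 7.29 FPKM, stood apart from the other 3 sham hearts, which had 6.22 to 6.37. Its gap to the nearest of them was 0.856 of the range of the group, above Dixon's 95% critical value for 4 samples. Of the 14 sets of values examined in this way 0.7 would be flagged by chance. Sham replicate 2 was on the side away from the MI hearts, and all MI hearts were below the other 3 sham hearts as well.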

How the results depend on the processing

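Over 16 alternatives, 439 of 446 recomputed fold changes and differences kept their direction and 7 changed it, and 77 of 125 counts stayed within 1.5 times. Members at an unadjusted p under 0.05 in limma numbered 4 higher and 1 lower. There were 2 higher with median log-ratio scaling and with quantile normalization. There were 0 lower with TPM and with the replicate block (which leaves out sham replicate 4 and gave 3 higher, without Plau) and 2 lower with sample weights. Leaving out single hearts gave 1 to 5 higher and 0 to 1 lower, 1 to 5 members with every MI heart above every sham heart, and 0 to 6 members at the adjusted p, the 6 without MI replicate 2. Sample weights gave 7 at the adjusted p, with nearly all weight among MI hearts on replicate 3. Of the 18 pathway genes 12 were higher and 0 lower (also 12 with the replicate block, where F13a1 took the place of Vkorc1l1), against 1 lower with sample weights and with either scaling, and 6 to 15 higher and 0 to 1 lower when single hearts were left out. Over all genes limma called 2 higher and 1 lower at the adjusted p and 4496 at an unadjusted p under 0.05. It called 2 and 0 with TPM (4702 unadjusted), 0 and 0 with a filter on the mean (4740), 0 and 0 with the replicate block (2330), 10 and 5 with either scaling, 20 higher without a filter, 5 higher with a pseudocount of 0.1, 7636 and 2316 with sample weights, and 0 to 6512 and 0 to 1683 when single hearts were left out (1487 to 8492 unadjusted). No pairing by replicate number was seen: deviations of same-numbered hearts from their group means correlated at 0.074, −0.016 and −0.080. With so few hearts, and MI replicate 2 unlike the other MI hearts, this cannot exclude a pairing. Direction changed for Serpini1 (−0.13 with median log-ratio scaling, −0.15 with quantile normalization), for Tfpi (0.0057 without MI replicate 3), for Plaur minus Plau (0.10 with a pseudocount of 0.1) and for F3 minus Tfpi when single hearts were left out (−0.36 to 0.13). The causes were not tested, except that leaving out hearts also reduces their number. Thbd ranged from 0.14 with median log-ratio scaling to 0.61 with TPM, and F3 from −0.61 with quantile normalization to −0.17 with TPM. Without MI replicate 2 the log2 fold changes were 1.11 for Plat, 1.41 for Plau, 2.51 for Serpine2, 3.28 for Serpinf1, −0.42 for F3, −0.55 for Tfpi and 0.49 for Thbd. Plaur and Procr had the fewest fragments of the members in the sham hearts, under 100 in each, and how far depth limits them was not tested.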

Other observations

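The genes named here shared the 2 levels of Tfpi or had the opposite pattern, and were chosen after their values were seen. Gpcpd1, which encodes a glycerophosphocholine phosphodiesterase, had 24.9, 29.0 and 26.4 FPKM in sham replicates 1 and 3 and MI replicate 2. It had 15.6, 15.7, 12.5 and 13.5 in sham replicates 2 and 4 and MI replicates 1 and 3. Tmem70, a factor for assembly of the mitochondrial ATP synthase, stood at 22.8, 20.7 and 18.9 FPKM in the first 3 of these hearts and at 9.67, 8.62, 6.09 and 14.8 in the other 4. The mitochondrial aspartate transfer RNA, mt-Td, had 19.7, 20.7 and 32.2 against 12.5, 7.87, 11.1 and 8.47.

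The opposite pattern was seen for Xirp2, an actin-binding protein of the intercalated disc, which had 3.77, 3.42 and 4.22 FPKM where Tfpi was high and 10.3, 8.74, 8.97 and 11.8 where it was low. Asdurf had 0.149, 0.142 and 0.147 against 1.23, 1.84, 2.30 and 1.27, and Zfp62, a zinc finger gene, 0.280, 0.185 and 0.119 against 1.4, 1.48, 1.54 and 0.868. These hearts were sorted by the level of Tfpi itself, so no test is given.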
